A study of Mus musculus with 6 samples.

Results

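The genes described here encode the integrins, syndecans and glypicans, receptors and co-receptors through which a chondrocyte binds the matrix around it. They were taken by symbol: the integrin α and β subunit genes with a probe set of their own, the 4 syndecans and the 6 glypicans, each read from its brightest probe set, which gave 35 of 22180 genes measured. The arrays, Affymetrix Mouse Gene 2.0 ST, hold RNA of primary articular chondrocytes of wild-type (WT) ICR mice 5 days old, grown as a monolayer in medium with fetal bovine serum. In 3 of them the cells had been treated with IL-1β, an inflammatory cytokine, and in the other 3 they were untreated. The labels number the samples of each group as biological replicates and give a harvest for RNA 24 h after treatment, and the cells of both groups carry no other agent or allele in the labels. Signals are on the log2 scale, so that a difference of 1 is a doubling, and signals of different genes cannot be ordered because each probe set binds with its own strength.

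Integrins are pairs of an α and a β chain that span the cell membrane. The α chain largely sets which matrix protein is bound, and the β chain links the pair to the actin skeleton through talin and kindlin. Syndecans are membrane proteins and glypicans are lipid-anchored proteins that carry heparan sulfate, a sugar chain that holds growth factors and matrix proteins at the cell surface. In cartilage these receptors hold chondrocytes to collagen II, fibronectin and laminins of the matrix next to the cell.

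Over all probe sets, correlations between arrays ran from 0.981 to 0.99 within a group and from 0.965 to 0.977 between groups. A background level of 4.57 was taken from the probe sets of olfactory, vomeronasal and taste receptors. The means of all 15 listed chondrocyte markers lay above it in both groups, which fits the labelled cell type. Of these markers 14 fell with IL-1β, and their mean log2 signal was 10.6 to 10.7 on the untreated arrays and 9.32 to 9.52 on the treated ones. Fibroblast and synoviocyte markers also lay above background (10 of 10), with a mean of 8.56 to 8.77 untreated and 8.94 to 9.17 with IL-1β. Of these, 5 rose and 1 fell. The part that these shifts have in the results below was not tested, and in RNA of a whole culture fewer cells of a type cannot be told apart from less RNA per cell.

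Of the 35 genes, 10 changed with IL-1β at an adjusted p under 0.05 by limma, against 17.2% of all genes. The 5 that rose were the integrin genes Itga7, Itga11 and Itgav and the syndecan genes Sdc1 and Sdc4, where 8.32% of all genes rose. The 5 that fell were the integrin genes Itga2 and Itga6 and the glypican genes Gpc1, Gpc3 and Gpc4, where 8.88% of all genes fell. The study's further limit, a log2 fold change beyond 1 upward or downward, was passed by 3.7% of all genes and by 5 of the 35. Sdc1 and Sdc4 passed it upward, as did 2.25% of all genes, and Itga2, Itga6 and Gpc3 downward, as did 1.45%. The remaining 25 genes did not pass the test.

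The median log2 fold change of the 35 genes was 0.03, beside -0.02 for all genes, and the median of its absolute size was 0.21, beside 0.15. Both means of 8 of the 35 genes lay under background, and of the 27 others 37.0% passed, beside 26.1% of 13912 genes chosen by the same level. The treated arrays all lay above the untreated arrays for 12 genes, a separation found for 15% of all genes, and below them for 8 genes, found for 18%. In either direction, 33% of all genes were separated in this way.

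**Figure D1:**
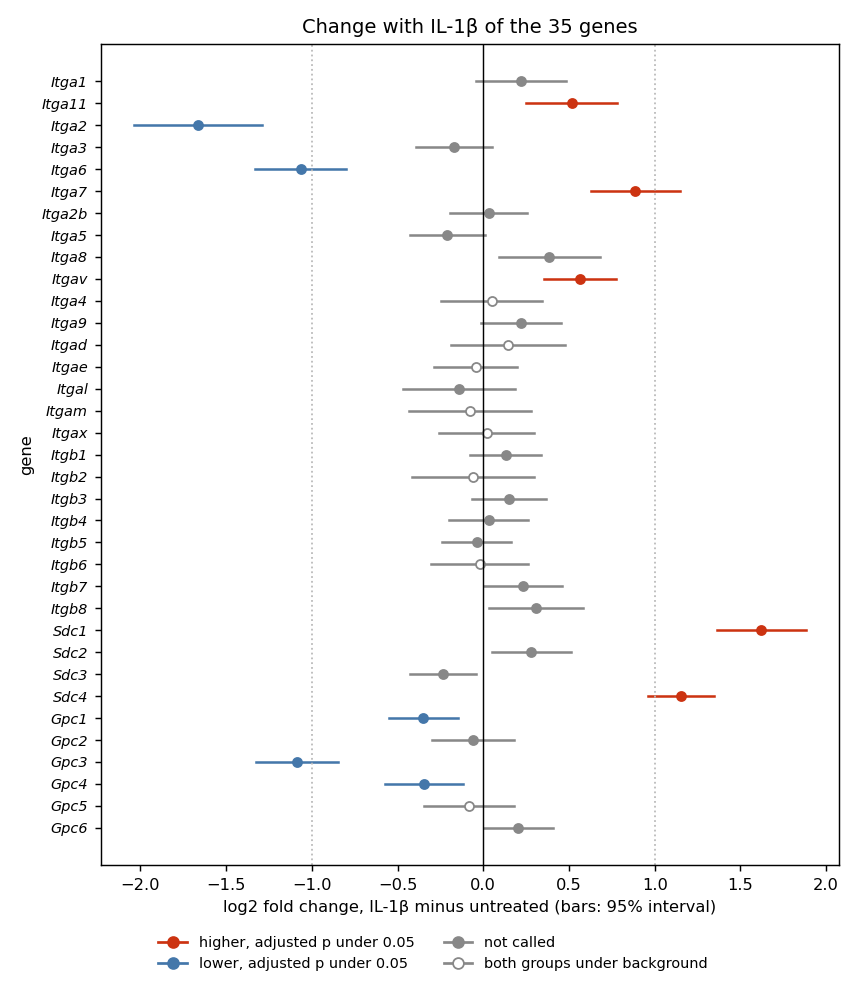
Log2 fold change of each of the 35 genes (IL-1β minus untreated, horizontal axis), with its 95% interval by limma, 1 row per gene. Filled red and blue points mark the 5 genes that rose and the 5 that fell, grey points those that did not pass, open points the 8 genes with both group means under background, and the dotted lines a log2 fold change of 1 in either direction.

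Of the 5 genes past the fold limit, the table of RefSeq promoters (GRCm38.p6) holds 4. Their last 250 bases before the annotated start are shown because these are the genes that moved furthest in opposite directions. Capitals mark matches to the GC box (GGGCGG, or CCGCCC on the other strand), the letters bound by Sp-family factors, and to the NF-κB motif. The NF-κB motif was searched as GGG, then A or G, any base, A or T, C or T, C or T again, and CC. NF-κB is the transcription factor that IL-1 receptors are best known to activate.
Sdc4, chr2:164443189-164443438, minus strand: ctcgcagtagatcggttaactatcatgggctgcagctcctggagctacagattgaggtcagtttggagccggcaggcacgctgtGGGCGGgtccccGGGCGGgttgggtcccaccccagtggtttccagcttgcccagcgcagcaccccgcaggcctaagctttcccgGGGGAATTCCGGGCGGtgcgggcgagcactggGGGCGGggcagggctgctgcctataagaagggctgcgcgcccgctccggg
Sdc1, chr12:8771146-8771395, plus strand: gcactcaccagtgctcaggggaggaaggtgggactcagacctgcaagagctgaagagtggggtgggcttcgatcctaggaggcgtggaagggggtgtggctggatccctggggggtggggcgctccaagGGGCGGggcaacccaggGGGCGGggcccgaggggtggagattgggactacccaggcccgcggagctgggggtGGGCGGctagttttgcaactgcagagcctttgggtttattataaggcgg
Itga2, chr13:114932101-114932350, minus strand: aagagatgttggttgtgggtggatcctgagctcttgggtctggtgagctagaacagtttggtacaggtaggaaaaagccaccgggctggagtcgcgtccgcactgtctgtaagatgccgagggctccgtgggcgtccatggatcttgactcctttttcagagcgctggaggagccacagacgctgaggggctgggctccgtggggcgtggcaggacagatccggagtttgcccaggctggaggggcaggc
Gpc3, chrX:52613975-52614224, minus strand: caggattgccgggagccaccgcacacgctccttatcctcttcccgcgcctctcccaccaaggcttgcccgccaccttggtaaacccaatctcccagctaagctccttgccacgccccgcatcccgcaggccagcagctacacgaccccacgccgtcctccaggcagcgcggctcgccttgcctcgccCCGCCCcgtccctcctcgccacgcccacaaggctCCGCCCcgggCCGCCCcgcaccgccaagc
The window of Sdc4 holds GGGGAATTCC, an NF-κB match from 82 to 73 bases before the start, which ends where a GC box begins, and 4 GC boxes in all. Sdc1 has 3 GC boxes and no NF-κB match, and the window of Itga2 has neither motif. In Gpc3 the 3 GC boxes lie on the opposite strand within the last 63 bases.

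Windows were found for 24 of the 35 genes, 7 of those that changed among them. Sdc4 was the only one of the 24 with an NF-κB match, a motif in 3.9% of all 32851 windows of this length. TGANTCA, the motif of AP-1, which IL-1 also activates, was in the window of 1 gene, Itgax, whose signal was under background, and in 6.75% of all windows. GC boxes were in the windows of 13 of the 24 genes, 4 that changed among them, and in 32.7% of all windows. All motifs were searched on both strands. A match is only a run of letters, and binding was not measured.

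The syndecans included both genes that rose past the fold limit. Sdc4 encodes syndecan-4, a co-receptor that joins integrins at focal adhesions. Its log2 signal was 10.22, 10.25 and 10.24 on untreated arrays 1 to 3 and 11.42, 11.37 and 11.37 on IL-1β arrays 1 to 3. The arrays within each group were nearly alike, and the groups lay far apart. Sdc4 rose from 10.23 ± 0.01 to 11.39 ± 0.03 (SD, n = 3 arrays each), a 2.22-fold change, with a log2 fold change of 1.15 (with standard error 0.09 and adjusted p = 3.69e-05 by limma).

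Sdc1 encodes syndecan-1, known best from epithelia and plasma cells, which binds growth factors and is shed from the cell surface. It gave 6.06, 6.10 and 5.85 on the untreated arrays and 7.61, 7.49 and 7.77 on the treated ones. No treated array came near an untreated one. The rise was 3.08-fold, a log2 fold change of 1.62 (with standard error 0.11 and adjusted p = 2.94e-05 by limma), from 6.0 ± 0.14 to 7.62 ± 0.14 (SD, n = 3 arrays each). A dimmer probe set of Sdc1 also rose, but by less (log2 fold change 0.59, adjusted p = 0.0192 by limma). Of 6 measured markers of epithelium, the tissue for which syndecan-1 is best known, 0 passed by limma. The 2 with an unadjusted p under 0.05 by limma, Krt14 and Cldn4, were lower with IL-1β (log2 fold change -0.36 and -0.32). Of the 6 markers, 5 had a mean above background untreated and 4 with IL-1β. The mean of the 6 was 4.90 to 5.10 on untreated and 4.78 to 4.94 on treated arrays.

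The other two syndecans did not pass, though the arrays of each were separated, in opposite directions. Sdc2, the syndecan of mesenchymal cells, was at 10.01, 9.94 and 10.07 untreated and 10.40, 10.15 and 10.31 with IL-1β. Its log2 fold change was 0.28 (95% interval 0.05 to 0.51, adjusted p = 0.102 by limma). Sdc3, the syndecan of nerve and developing cartilage, was at 10.29, 10.28 and 10.25 untreated and 10.03, 10.06 and 10.03 with IL-1β. Its log2 fold change was -0.23 (95% interval -0.43 to -0.04, adjusted p = 0.105 by limma). Sdc2 passed in 4 and Sdc3 in 5 of the 15 alternative settings, among them both filters on dim genes (adjusted p = 0.0333 and 0.0476 for Sdc2, 0.0274 and 0.0427 for Sdc3). Sdc3 alone passed in the methods' t-test (adjusted p = 0.00585).

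**Figure D2:**
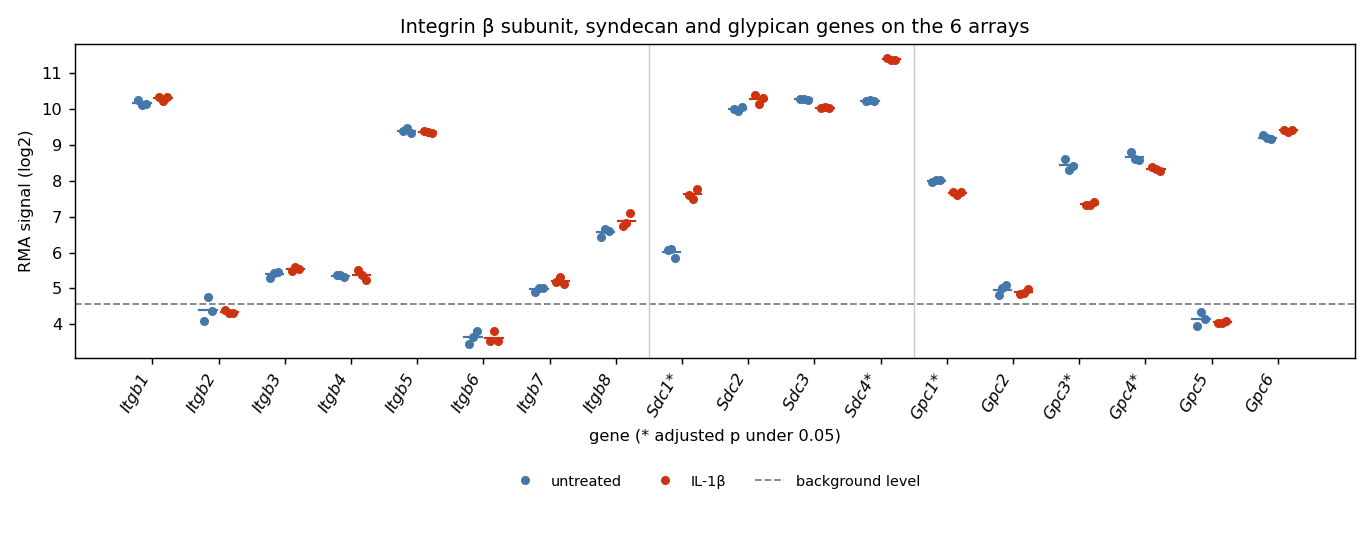
Log2 RMA signal (vertical axis) of each integrin β, syndecan and glypican gene on the 3 untreated (blue) and 3 IL-1β-treated (red) arrays. Points are arrays, short lines group means, the dashed line the background level of 4.57, and asterisks genes that passed. Sdc1 and Sdc4 stand higher and Gpc3 lower on the treated arrays, while the groups lie close together for every β gene.

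The glypicans that passed all fell: 3 of 6 passed, all downward, where 8.88% of all genes fell, and none passed upward. Of the 3, only Gpc3 passed under all 15 alternatives. Gpc3 encodes glypican-3, a regulator of hedgehog and Wnt signals whose loss causes overgrowth. It was at 8.61, 8.31 and 8.43 on the untreated arrays and at 7.34, 7.33 and 7.41 on the treated ones. Each treated array was well below the lowest untreated one. Gpc3 fell 2.12-fold, from 8.45 ± 0.15 to 7.36 ± 0.05 (SD, n = 3 arrays each), with a log2 fold change of -1.09 (with standard error 0.11 and adjusted p = 1.59e-04 by limma).

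Gpc4 encodes glypican-4, a Wnt co-receptor and the neighbour of Gpc3 on the X chromosome. Its signal was 8.81, 8.61 and 8.59 untreated and 8.38, 8.32 and 8.27 with IL-1β. The groups did not overlap, but the gap between the nearest arrays was small. Gpc4 fell 1.27-fold (log2 fold change -0.34, standard error 0.10 and adjusted p = 0.0450 by limma), from 8.67 ± 0.12 to 8.32 ± 0.05 (SD, n = 3 arrays each). Its call was lost with each of the 6 arrays left out (adjusted p = 0.0591 to 0.137), with median centering (adjusted p = 0.0512) or in the methods' t-test (adjusted p = 0.0722).

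Gpc1 encodes glypican-1, a co-receptor of fibroblast growth factors. Its brightest probe set was at 7.97, 8.04 and 8.02 untreated and at 7.69, 7.59 and 7.70 with IL-1β. Arrays of a group were close together, and all treated ones were lower. This probe set fell 1.27-fold, from 8.01 ± 0.03 to 7.66 ± 0.06 (SD, n = 3 arrays each; log2 fold change -0.35, standard error 0.09, adjusted p = 0.0253 by limma). A dimmer one went the other way (log2 fold change 0.13, adjusted p = 0.553 by limma), and the mean of the 2 probe sets did not pass (-0.11, adjusted p = 0.533). Leaving out each of the 6 arrays in turn ended the call of Gpc1 every time (adjusted p = 0.0552 to 0.0862 by limma).

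The other glypicans did not pass. Gpc6, a glypican that in humans is needed for the growth of limb bones, was at 9.27, 9.18 and 9.16 untreated and 9.42, 9.37 and 9.43 with IL-1β, separated upward (log2 fold change 0.20, 95% interval 0.00 to 0.40, adjusted p = 0.175 by limma). Gpc2, a glypican of the developing nervous system, had -0.06 (95% interval -0.30 to 0.18), and Gpc5 was under background in both groups.

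Among the integrin α genes, 5 of 17 changed (29.4%, beside 17.2% of all genes). All 5 were among the 12 α genes that lay above background in 1 or both groups. Of all genes above background in 1 or both groups, 26.1% passed. The 3 measured chains that bind collagen and the 3 that bind laminin each held 1 gene that rose and 1 that fell. Of the collagen receptors, Itga2 encodes α2, which with β1 binds fibrillar collagen. Its log2 signal was 7.31, 7.90 and 7.33 untreated and 5.71, 5.95 and 5.88 with IL-1β. Untreated array 2 was higher than the other two, and all treated arrays lay far below. Itga2 fell 3.17-fold, from 7.51 ± 0.34 to 5.85 ± 0.12 (SD, n = 3 arrays each), with a log2 fold change of -1.66 (with standard error 0.16 and adjusted p = 1.72e-04 by limma).

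Itga11 encodes α11, a receptor for fibrillar collagen of fibroblasts and other mesenchymal cells. Its arrays read 5.89, 6.04 and 5.66 untreated and 6.38, 6.45 and 6.31 with IL-1β. The untreated arrays were spread more widely than the treated ones, without overlap between groups. Itga11 rose 1.43-fold (log2 fold change 0.52, standard error 0.12, adjusted p = 0.0155 by limma), from 5.87 ± 0.19 to 6.38 ± 0.07 (SD, n = 3 arrays each). It did not pass without untreated replicate 3 (adjusted p = 0.0578), without IL-1β replicate 1 (adjusted p = 0.0581) or in the methods' t-test (adjusted p = 0.0770). Of the 10 fibroblast and synoviocyte markers given above, 5 rose, 1 fell and 4 did not pass on the same arrays, and their part in this rise was not tested.

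Itga1 encodes α1, which prefers the collagen of basement membranes, and was at 8.15, 8.16 and 7.90 untreated and 8.45, 8.18 and 8.23 with IL-1β. Although the treated arrays were all higher, it did not pass (log2 fold change 0.22, 95% interval -0.04 to 0.49, adjusted p = 0.268 by limma). Itga10, the α chain of the collagen II receptor typical of cartilage, was not analysed here.

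Of the laminin receptors, Itga6 encodes α6, which pairs with β1 or β4. It was at 9.16, 8.77 and 8.94 on the untreated arrays and at 7.85, 7.96 and 7.87 on the treated ones. The treated arrays clustered tightly, well below every untreated one. Itga6 fell 2.09-fold, from 8.96 ± 0.20 to 7.89 ± 0.06 (SD, n = 3 arrays each), with a log2 fold change of -1.06 (with standard error 0.12 and adjusted p = 3.16e-04 by limma). Without untreated replicate 1 its log2 fold change was -0.96, short of the fold limit.

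Itga7 encodes α7, the laminin receptor best known from skeletal muscle. Its signal was 5.67, 5.79 and 5.70 untreated and 6.43, 6.59 and 6.80 with IL-1β. All treated arrays were clearly higher, with a wider spread among them. Itga7 rose 1.85-fold, from 5.72 ± 0.07 to 6.61 ± 0.19 (SD, n = 3 arrays each), with a log2 fold change of 0.89 (with standard error 0.11 and adjusted p = 7.83e-04 by limma). Of 5 measured markers of skeletal muscle none rose and 1 fell, with a mean of 5.13 to 5.29 untreated and 4.73 to 5.14 with IL-1β. Itga3, for the α3 chain that binds laminins of epithelial basement membranes, had a log2 fold change of -0.17 (95% interval -0.39 to 0.05, adjusted p = 0.313 by limma), with 7.34, 7.49 and 7.33 untreated and, just below, 7.32, 7.16 and 7.16 treated.

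**Figure D3:**
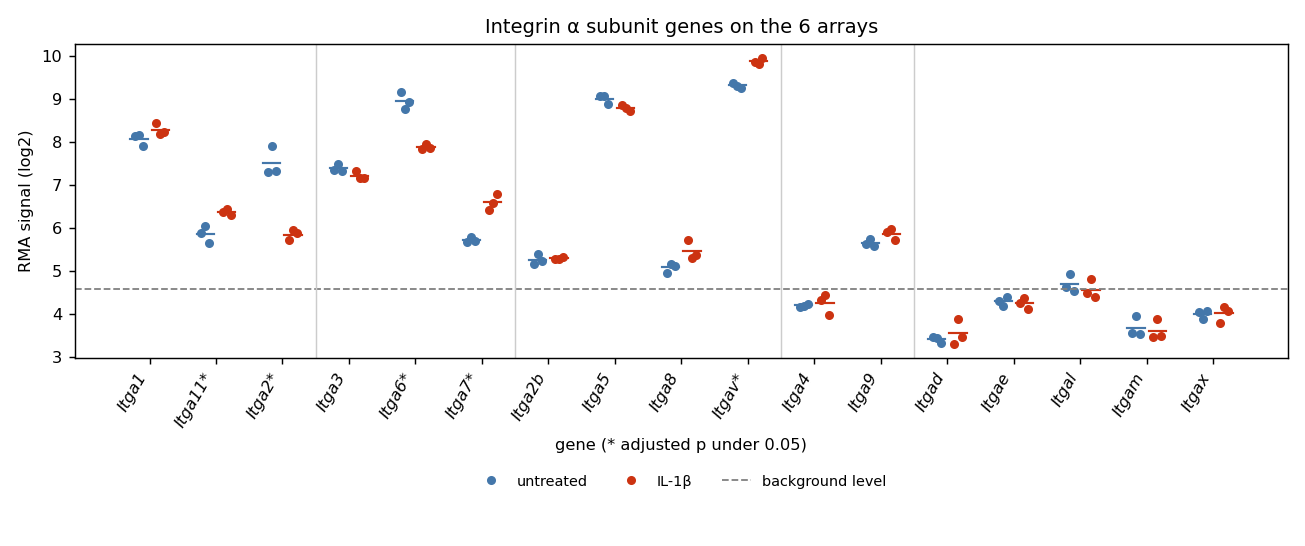
Log2 RMA signal (vertical axis) of each integrin α gene on the 3 untreated (blue) and 3 IL-1β-treated (red) arrays, grouped by what the chain binds. Points are arrays, short lines group means, the dashed line the background level of 4.57, and asterisks genes that passed. Itga2 and Itga6 stand lower and Itga7, Itga11 and Itgav higher on the treated arrays.

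Of the 4 chains that recognise the RGD sequence of fibronectin and vitronectin, 1 gene passed (25%, beside 17.2% of all genes). Itgav encodes αv, which pairs with several β chains and activates latent TGF-β. Its arrays read 9.39, 9.31 and 9.26 untreated and 9.87, 9.83 and 9.95 with IL-1β. Both groups were tight and well separated. Itgav rose 1.48-fold, from 9.32 ± 0.06 to 9.88 ± 0.06 (SD, n = 3 arrays each; log2 fold change 0.56, standard error 0.09, adjusted p = 0.00284 by limma). A dimmer probe set, under background, gave a log2 fold change of 0.27 and did not pass (adjusted p = 0.369 by limma).

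The fibronectin receptor chain α5, encoded by Itga5, was at 9.06, 9.06 and 8.90 untreated and 8.87, 8.79 and 8.73 with IL-1β. Its treated arrays were all lower, but it did not pass (log2 fold change -0.21, 95% interval -0.43 to 0.01, adjusted p = 0.197 by limma). Itga8, for the receptor of nephronectin, was at 4.96, 5.17 and 5.12 untreated and 5.72, 5.29 and 5.38 treated (log2 fold change 0.38, 95% interval 0.09 to 0.68, adjusted p = 0.0814 by limma). It passed with either filter on dim genes (adjusted p = 0.0423 and 0.0312) and with array weights, which count arrays that stray from their group for less (adjusted p = 0.0112). Itga2b, the fibrinogen receptor chain of platelets, had a log2 fold change of 0.03 (95% interval -0.19 to 0.26).

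Of the pair α4 and α9, Itga9, whose product binds tenascin-C, had a log2 fold change of 0.22 (95% interval -0.01 to 0.45, adjusted p = 0.208 by limma), and Itga4, whose product binds VCAM-1, was under background in both groups. The α chains of leukocytes lay at or under background too. Itgad, Itgae, Itgam and Itgax had both means under it, and Itgal, the ICAM-1 receptor chain of lymphocytes, had a mean of 4.70 untreated and 4.56 with IL-1β. Itgb2, whose product pairs with those of Itgad, Itgal, Itgam and Itgax but not of Itgae, was also under background in both groups. Of 13 measured leukocyte and macrophage markers, 4 had a mean above background untreated and 3 with IL-1β, and their mean signal was 4.05 to 4.31 untreated and 4.11 to 4.36 treated. The defining markers Ptprc (3.15 untreated, 3.05 with IL-1β), Adgre1 (3.35 and 3.48), Tyrobp (4.34 and 4.30) and Cd3e (4.24 and 4.26) were under background in both groups. Aif1, S100a8, S100a9 and Ly6g were under it too. Coro1a (5.25 and 5.30) was above background in both groups, Csf1r (4.66) and Fcer1g (4.59) untreated only, and Lyz2 (4.81) with IL-1β only. Cd68, which also marks lysosomes of other cells, was above it in both groups and was the 1 that rose, from 5.69 to 6.91.

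No β gene passed: 0 of 8 did, beside 17.2% of all genes, and 2 did at an unadjusted p under 0.05 by limma. None of the 6 above background passed in any alternative, the methods' t-test included. Itgb1, whose product pairs with every collagen-binding and laminin-binding α chain named here, was at 10.24, 10.13 and 10.15 untreated and 10.34, 10.24 and 10.34 with IL-1β. The highest untreated array met the lowest treated one, and the log2 fold change was 0.13 (95% interval -0.08 to 0.34, adjusted p = 0.423 by limma). Of the partners of αv, Itgb3 had a log2 fold change of 0.15 (95% interval -0.06 to 0.37), Itgb5 -0.04 (95% interval -0.24 to 0.16) and Itgb8, which presents latent TGF-β, 0.31 (95% interval 0.03 to 0.58). Itgb8 gave an adjusted p of 0.129 by limma. Itgb7, a chain of lymphocytes, had 0.23 (95% interval 0.01 to 0.46, adjusted p = 0.170 by limma) and Itgb4, the partner of α6 in hemidesmosomes, 0.03 (95% interval -0.20 to 0.26). The treated arrays of Itgb3, Itgb7 and Itgb8 were all higher than the untreated ones, and Itgb6, a chain of epithelia, was under background. The bounds nearest to the fold limit were those of Itgb8, so that the interval of each β gene above background lies inside a log2 fold change of 1.

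How far each call depended on the settings differed between genes. Itga7, Itgav, Sdc1 and Sdc4, 4 of the 5 that rose, and Itga2, Itga6 and Gpc3, 3 of the 5 that fell, passed under all 15 alternatives, which include leaving out each of the 6 arrays in turn. Itga11, Gpc1 and Gpc4 did not. Of 17 genes above background that did not pass, 5 did so in some alternative (Itga1, Itga8, Sdc2, Sdc3 and Gpc6) and 12 in none.

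**Figure D4:**
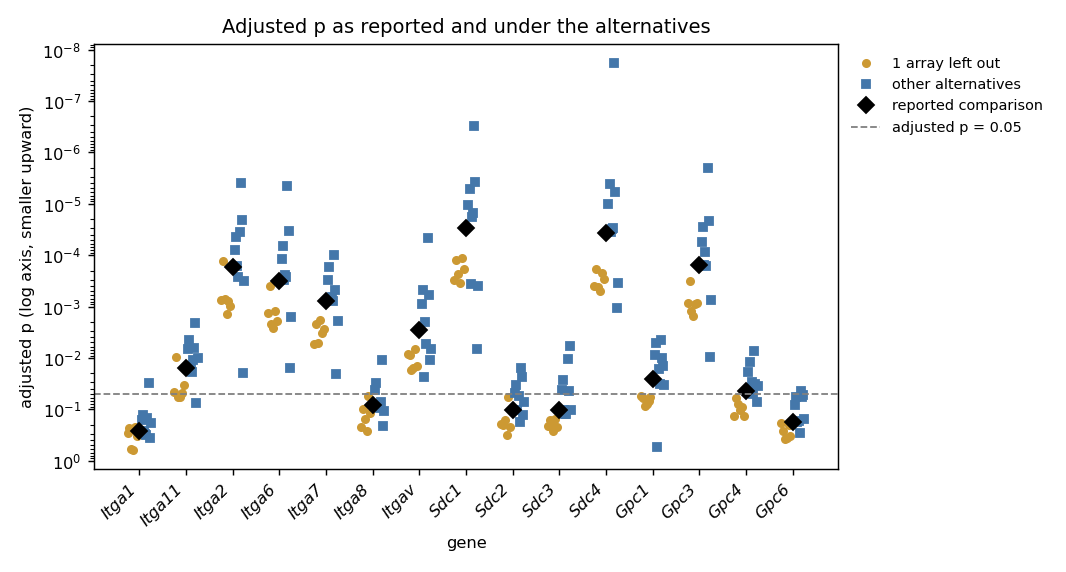
Adjusted p (vertical log axis, smaller values upward) of the 10 genes that passed and the 5 that passed in some alternative only. Black diamonds are the values reported, orange points those with 1 array left out, blue squares the other alternatives, and the dashed line 0.05. For Itga2, Itga6, Itga7, Itgav, Sdc1, Sdc4 and Gpc3 every point lies above the line.

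The genes that work with these receptors were counted in 5 lists. Among proteins that activate integrins or tie them to actin, 3 of 23 rose, 2 fell and 18 did not pass (21.7% called, beside 17.2% of all genes), with a median log2 fold change of -0.05. Tns2, for tensin-2, a protein that ties integrin tails to actin, fell from 9.38 ± 0.08 to 8.29 ± 0.04 (SD, n = 3 arrays each; log2 fold change -1.09, adjusted p = 7.15e-05 by limma). Parva, for α-parvin, rose by 0.40 on the log2 scale (adjusted p = 0.0130), Tln2, for talin-2, by 0.40 (adjusted p = 0.0339) and Lims1, for PINCH-1, by 0.32 (adjusted p = 0.0431), while Tns3 fell by 0.31 (adjusted p = 0.0466; all limma). Tns2 was the only 1 of these 5 that passed under every alternative. Parva lost its call without untreated replicate 3 and without IL-1β replicate 1 (adjusted p = 0.0553 and 0.0649 by limma). Tln2, Lims1 and Tns3 lost theirs in 4, 5 and 6 of the 6 settings with 1 array left out, with adjusted p up to 0.126, 0.172 and 0.139 by limma. Of 14 kinases and effectors of adhesion, 1 passed (7.14%): Bcar1, for the Src substrate p130Cas, rose by 0.75 on the log2 scale (adjusted p = 8.31e-04 by limma).

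Among proteins that integrins bind, 6 of 28 rose, 7 fell and 15 did not pass (46.4% called, beside 17.2% of all genes). The median log2 fold change was 0.05. Of the laminin and basement membrane genes, Lamb1 rose by 1.75 and Nid1, for nidogen-1, by 0.88 on the log2 scale (adjusted p = 1.49e-05 and 3.79e-04 by limma). Lama3 fell by 1.14 and Nid2, for nidogen-2, by 0.95 (adjusted p = 7.12e-05 and 1.86e-04 by limma), so that within this group, as among the laminin receptors, members moved both ways. The ligand of α8, Npnt (nephronectin), rose by 1.31 (adjusted p = 2.45e-04), and bone sialoprotein, Ibsp, by 1.46 (adjusted p = 0.0173; both limma). Ibsp did not pass without untreated replicate 3, IL-1β replicate 1 or IL-1β replicate 3 (adjusted p = 0.0525, 0.0679 and 0.0581 by limma), nor in the methods' t-test (adjusted p = 0.161). Tgfbi, which binds collagen and integrins, fell by 1.85 (adjusted p = 1.18e-04) and Tnc, for tenascin-C, by 0.78 (adjusted p = 0.00120; both limma). Fn1, for fibronectin, was at 12.72 in both groups (log2 fold change 0.01, adjusted p = 0.973 by limma), and Vtn, for vitronectin, was under background.

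Partners and sheddases of syndecans and glypicans gave 4 of 12 that rose and none that fell (33.3% called, beside 17.2% of all genes). All 12 lay above background in 1 or both groups, where 26.1% of genes passed. The median log2 fold change was 0.17. Mmp3, for stromelysin-1, a protease that can release syndecans, was at 4.47, 4.34 and 4.59 untreated and 11.87, 11.61 and 11.82 with IL-1β. The untreated mean was under background, and Mmp3 rose at least 146-fold (adjusted p = 8.04e-09 by limma). Adam17, for a membrane sheddase, rose by 0.60 on the log2 scale (adjusted p = 0.00850), Mmp9 by 1.09 (adjusted p = 0.0148) and Hpse, for heparanase, which cuts heparan sulfate, by 0.51 (adjusted p = 0.0376; all limma). The call of Mmp9 was lost without untreated replicate 1 and without untreated replicate 3 (adjusted p = 0.0620 and 0.0593 by limma). In the methods' t-test the calls of Mmp9 (adjusted p = 0.143) and Adam17 (adjusted p = 0.0615) were lost. Hpse failed in 8 of the 15 alternatives. Its highest adjusted p, 0.303 by limma, came with the mean of its 2 probe sets. That mean had a log2 fold change of 0.21, beside 0.51 for the brightest probe set, so the dimmer one did not rise. Another of the 8 is the fit with replicate number as a block (adjusted p = 0.0637 by limma).

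Enzymes of the heparan sulfate chain rose and fell in equal number, 4 each of 23 measured (34.8% called, beside 17.2% of all genes). The median log2 fold change was -0.08. Sulf2, which removes sulfate from the finished chain, rose by 0.89 on the log2 scale (adjusted p = 2.56e-04), and Extl3, which helps begin the chain, by 0.53 (adjusted p = 0.00773). Ext1, a subunit of the polymerase, rose by 0.38 (adjusted p = 0.0344) and Xylt2 by 0.31 (adjusted p = 0.0466; all limma), but with 1 array left out Ext1 lost its call in 5 and Xylt2 in all 6 of the 6 settings. Ext1 was also lost in the methods' t-test (adjusted p = 0.0743), and Xylt2 with replicate number as a block (adjusted p = 0.0579 by limma). Of the enzymes that fell, Extl1, a polymerase-like enzyme, had a log2 fold change of -1.09 and Fam20b, the kinase of the sugars that link chain to protein, -1.03 (adjusted p = 1.40e-04 and 1.33e-04 by limma). Glce, the epimerase of the chain, had -0.52 and Xylt1, which with Xylt2 adds the first sugar, -0.50 (adjusted p = 0.00637 and 0.0100 by limma). Xylt1 lost its call without IL-1β replicate 1 (adjusted p = 0.0509 by limma). Over the 5 lists together 18 genes rose and 13 fell, where 8.32% of all genes rose and 8.88% fell. Without untreated replicate 3, IL-1β replicate 1 or IL-1β replicate 3, the first count was 9, 10 and 11.

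**Figure D5:**
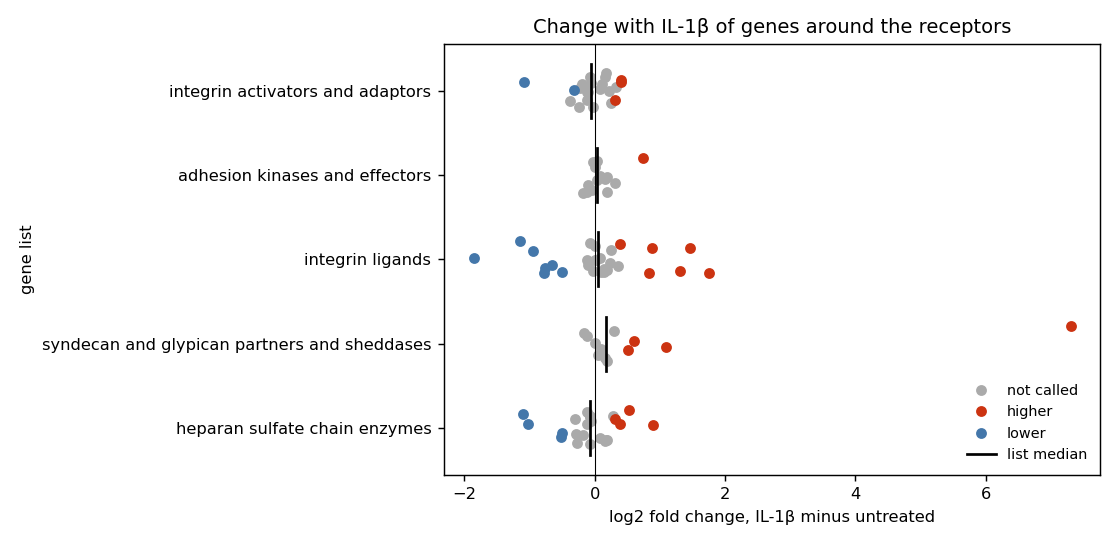
Log2 fold change (IL-1β minus untreated, horizontal axis) of each measured gene of 5 lists of integrin and proteoglycan partners. Red points rose, blue points fell and grey points did not pass, vertical bars are list medians, and the heights of points within a list carry no value. The point at the far right is Mmp3, whose measured difference starts from a mean under background.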

How the data were processed

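RNA of 3 IL-1β-treated and 3 untreated samples was hybridised to 1 array each, and groups and replicate numbers came from the labels. The authors summarised the probe signals with RMA, which corrects background and makes arrays alike, and deposited log2 values for 41345 probe sets, used as deposited. RMA shrinks differences between dim signals. The platform table lists 25341 probe sets, 23521 of them with 1 gene symbol, and 16004 unlisted ones and those with several symbols were not used. Symbols were updated through Entrez IDs, and the probe set with the highest mean stood for each of 22180 genes.

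IL-1β-treated and untreated arrays were compared in R 4.3.3 by lmFit and eBayes of limma 3.58.1 at default settings, with Benjamini-Hochberg adjustment over all genes and a threshold of 0.05. The script was tested on simulated data. Intervals are at 95%. The arrays carry no detection call, so the 95th percentile of 1438 probe sets for receptors of smell, pheromones and taste served as background. A gene with 1 mean under it is given as at least N-fold, each array of the dim group set to no less than that level. The number of arrays limits the precision. The labels call the samples biological replicates without naming separate animals, so the p-values measure the spread between these samples. The methods give another number of replicates than the labels.

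The genes and lists were chosen with earlier results of these data known. Genes that passed are given with all arrays, and up to 4 genes per direction of each partner list, by size of change, are named. Alternatives were 2 filters on dim genes, the mean of probe sets, a second quantile normalization, median centering, a trend and robust prior, array weights, the methods' t-test, replicate number as a block, and leaving out each array. Deviations of same-numbered arrays from their group means correlated at 0.101, 0.379 and 0.189 for numbers 1, 2 and 3. Those of untreated array 1 and IL-1β array 3 correlated at 0.226, more than for numbers 1 and 3. The other pairs with unlike numbers ran from -0.340 to 0.012. What a number stands for is not given in the sources used here, and the unpaired comparison was kept because the methods name no pairing.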

Additional observations from a re-analysis of the deposited data

How the results depend on the processing

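With array weights 8 of the 35 genes rose in place of 5, the addition being Itga1, Itga8 and Sdc2. In this setting IL-1β array 1 had a weight of 3.19, beside 0.53 and 0.80 for IL-1β arrays 2 and 3. It was the highest treated array for each of the added genes. When 1 array was left out, the count of genes that fell was 3 each time in place of 5 (Gpc1 and Gpc4 did not pass), the count that rose 4 to 5, and the count of partner genes that rose 9 to 15 in place of 18. Of 402 values of the members under alternatives, 4 changed sign, all in genes that did not pass. They are the log2 fold changes of Itgb5, which was 0.0045 with array weights, and, with 1 array left out, of Itga2b (-0.020 to 0.10), Itgb4 (-0.040 to 0.10) and Gpc2 (-0.14 to 0.0045). None of 390 values of the 26 named partner genes changed sign, and 15 of the 26 passed under every alternative.

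With replicate number as a block the counts of genes that rose and fell were 5 and 5, as without it, and no call among the 35 genes changed. In this paired fit Hpse (adjusted p = 0.0637 by limma) and Xylt2 (adjusted p = 0.0579) no longer passed, while Tns1 (log2 fold change -0.38, adjusted p = 0.0376 against 0.0637 without the block) and Col6a1 (0.35, adjusted p = 0.0304 against 0.0613) did. The partner genes that rose and fell then numbered 17 and 14 in place of 18 and 13. The cause of these changes was not tested. Over all genes the alternatives called 1315 to 2656 genes higher and 1345 to 2889 lower, where the unpaired comparison called 1846 and 1969. For 8 of the 35 genes, both means under background, the arrays give no measured fold.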
